A study of Homo sapiens with 6 samples.

Results

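Stable 5mC-only regions are stretches of the genome where a 5mC peak was listed at both glucose levels and a 5hmC peak at neither. They were found in A2058, a human melanoma cell line that was made to overexpress wild-type TET2 and was cultured for 7 days in high or normal glucose. Antibody pull-downs were sequenced, hMeDIP-seq for 5hmC and MeDIP-seq for 5mC; each antibody pulls down DNA that holds its base. High glucose had 1 library per base and 1 input, and normal glucose likewise, 6 samples in all. Both glucose levels carry the TET2 overexpression, and cells without it were not analysed here. The series asked how the genomic distribution of both bases differed between the glucose levels.

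The regions were chosen by the presence or absence of listed peaks at both glucose levels, so peak counts, strengths and widths below are descriptions of that choice. All rows of the 4 deposited peak lists on chromosomes 1 to 22 and X were pooled, and rows that overlapped by at least 1 bp were merged into 319166 union regions. Of these, 68672 held a row of both 5mC lists and are called stable 5mC regions. The 35914 stable 5mC regions with no row of either 5hmC list are the 5mC-only regions, 11.3% of all union regions. With 1 library per group there is no replicate check and no p-value. Intervals are Wilson 95% intervals for shares and order-statistic 95% intervals for medians. They cover counting only, and neighbouring regions are not independent. Positions are on hg19, and no sequence or gene annotation of that build was used.

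5-methylcytosine (5mC) is written on cytosine, mostly at CpG sites, by DNA methyltransferases, and is known for silencing repeats, imprinted genes and many CpG islands. TET2 is a dioxygenase that oxidises 5mC to 5-hydroxymethylcytosine (5hmC), which is an intermediate of demethylation and also a lasting mark of gene bodies and enhancers. 5hmC is low in many melanomas. In a 5mC-only region the substrate of TET2 was listed and its product was not.

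Of the stable 5mC regions, 52.3% had no 5hmC peak at either glucose level (interval 51.9 to 52.7). Another 34.4% held 5hmC in both lists and are called doubly marked, 3.74% held it in high glucose only and 9.54% in normal glucose only. The 5mC-only regions covered 25.8 Mb, against 44.0 Mb for the 23635 doubly marked regions. They took up 36233 of the 100220 high-glucose 5mC peaks, or 36.2%, and 36244 of the 91870 normal-glucose 5mC peaks, or 39.5%. In 35292 regions, 98.3%, each 5mC list gave a single peak. Because the choice of regions rests on these lists, the counts describe the groups and test nothing.

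How much 5hmC could be missed depends on the smallest peaks that were listed. The fold and p-value of each peak give the number of fragments at its summit and the number expected there. No listed 5hmC peak had fewer than 9 fragments in high glucose or fewer than 8 in normal glucose, where the smallest expected number was 3.03 and 2.64. The 5mC lists began at 4 fragments, with a smallest expected number of 0.737 in high and 0.615 in normal glucose. 5hmC below those numbers was not detectable at this depth, and a region without a listed peak is not shown to lack the base. Where 5hmC was listed at 1 glucose level only, its peaks were weak. Their median -log10 p was 6.36 in the high-glucose list and 6.15 in the normal-glucose list. In doubly marked regions it was 12.2 in the high-glucose list and 12.4 in the normal-glucose list.

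5mC-only regions were narrower and weaker than doubly marked ones within each 5mC list. In the high-glucose list their median peak width was 499 bp (496 to 502), against 789 bp (779 to 798) in doubly marked regions. In the normal-glucose list it was 485 bp against 773 bp. Their median -log10 p was 11.8 against 20.5 in the high-glucose list and 10.4 against 18.4 in the normal-glucose list. The median fold over background was 7.16 against 10.5 in high glucose and 6.81 against 9.93 in normal glucose. Summits of 5mC-only regions held a median of 13 fragments in high and 11 in normal glucose, against 21 and 18 in doubly marked regions. Regions with 5hmC at 1 glucose level lay in between, with medians of 15.6 for -log10 p in the high-glucose 5mC list for both kinds. Folds and p-values are the authors' own, 1 per listed peak. A wide 5mC peak meets a 5hmC peak more easily than a narrow one, so the width is tied to the rule. With 5hmC counted only from 50% cover of the region, the high-glucose median was 554 bp in regions below that cover. It was 659 bp in regions where each 5hmC list reached it. The difference in width was then -105 bp in place of -290 bp, and that in -log10 p was -4.95 in place of -8.67. Of the 47046 regions below 50% cover, 35914 were 5mC-only and the others held some 5hmC. A wide region needs more 5hmC to reach 50%, so this setting is tied to width as well.

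**Figure D1:**
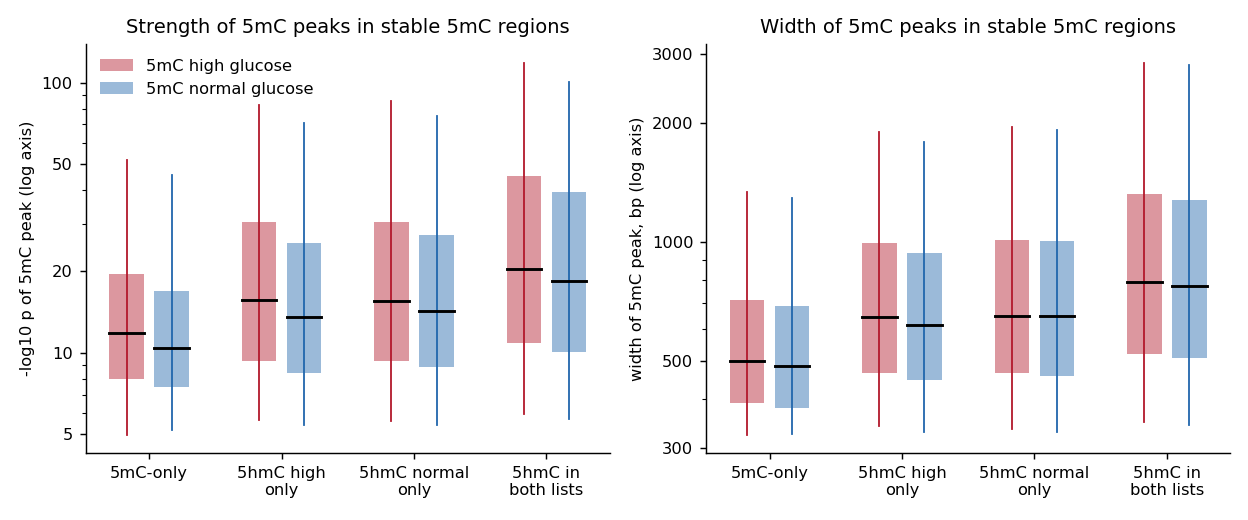
Strength (-log10 p, left) and width (bp, right) of the strongest 5mC peak per stable 5mC region, both on log axes, for regions without 5hmC, with 5hmC in 1 list only and with 5hmC in both lists. Boxes span the middle 50% of regions, black lines are medians and thin lines run from the 5th to the 95th percentile; the 5mC-only medians, 11.8 in high and 10.4 in normal glucose, are the lowest of the 4 groups.

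The stronger the 5mC peak, the less often the region was free of 5hmC. Among regions with a high-glucose -log10 p of up to 5, 67.4% were 5mC-only (65.6 to 69.1). The share was 57.7% between 10 and 20, 29.1% between 40 and 80, and 14.4% above 160 (11.8 to 17.5). The same order was seen along the normal-glucose list above a -log10 p of 5, with 65.3% between 5 and 10 and 12.3% above 160. Its weakest bin, at 63.3%, was the exception. By width the share was 72.3% for high-glucose peaks of up to 400 bp and 6.18% for peaks above 3000 bp.

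The order by strength was not seen at every width. Among high-glucose peaks of up to 400 bp the share was 73.5% at a -log10 p of up to 5, 71.5% between 5 and 10 and 74.2% between 10 and 20. Peaks of 400 to 600 bp were 5mC-only in 63.2% up to a -log10 p of 5, 62.8% between 10 and 20 and 48.3% between 40 and 80. Among high-glucose peaks of 600 to 1000 bp, 61.0% were 5mC-only at a -log10 p of up to 5, 43.8% between 20 and 40, and 14.0% of the 43 regions above 160. When 5hmC was counted only if it lay over a 5mC summit, a setting chosen after the data were seen that asks at a single base of each peak, the share was 72.8% in the weakest bin and 29.1% in the strongest. Windows of 1 Mb were also grouped by their number of 5hmC peaks, which the rule itself uses, without holding width fixed. Those with the fewest 5hmC peaks hold 13815 stable 5mC regions. There 82.1% of the weakest regions and 82.3% of those between 5 and 10 were 5mC-only, and the share then fell to 40.4% of the 57 strongest. In the windows with the most, it fell from 53.0% of the weakest to 5.65% of the 230 strongest.

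**Figure D2:**
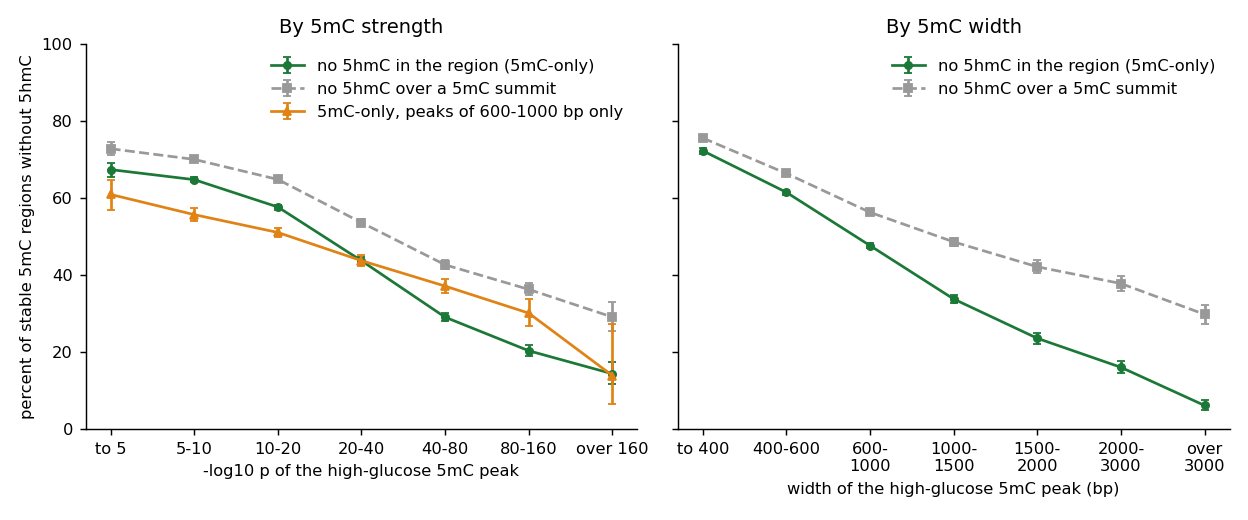
Percent of stable 5mC regions without 5hmC by -log10 p (left) and by width in bp (right) of their high-glucose 5mC peak, with Wilson 95% intervals. Green circles count 5hmC anywhere in the region, grey squares count it only over a 5mC summit, and orange triangles hold peaks of 600 to 1000 bp; all lines are lowest in the strongest or widest bin.

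Some of the strongest 5mC peaks were nevertheless free of 5hmC. The smaller of the 2 -log10 p values was at least 100 in 252 5mC-only regions, 16.2% of the 1556 stable 5mC regions at that level (14.4 to 18.1), and at least 200 in 9 of 82. Ranked by the smaller value, the first lay on chromosome 15 from 65368535 to 65370840. Its -log10 p was 247 in high and 245 in normal glucose, with folds of 75.9 and 79.9. It is 2306 bp wide, and the nearest 5hmC peak began 195 bp away.

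The second lay on chromosome 5 from 132149472 to 132151215, with a -log10 p of 273 in high and 239 in normal glucose. The third lay on chromosome 8 from 144939844 to 144941338, with a -log10 p of 247 and 234. The folds of the third were only 35.3 in high and 42.5 in normal glucose, because 4.75 and 3.14 fragments were expected at its summits, more than at the first pair. The eighth, on chromosome 8 from 145180239 to 145181244, was alike, with folds of 35.0 and 48.8 and expected numbers of 3.83 and 2.09.

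The fourth, on chromosome 11 from 86141883 to 86143004, had folds of 72.0 in high and 65.6 in normal glucose and its nearest 5hmC peak lay 8273 bp away. The fifth, on chromosome 5 from 140810249 to 140812735, had the largest high-glucose -log10 p of all 5mC-only regions, 326, beside 230 in normal glucose. Its folds were 94.1 and 66.4, and its nearest 5hmC peak lay 12734 bp away. Rank 6 was on chromosome 13 from 101184068 to 101185587, and rank 7 on chromosome 9 from 34370573 to 34373227. Rank 9 was on chromosome 11 from 92702338 to 92703548, and rank 10 on chromosome 10 from 135341095 to 135343626. Widths of the 10 strongest were 1006 to 2655 bp. Their summits counted between 129 and 202 fragments in the high-glucose library and between 114 and 175 in the normal-glucose library. A 5hmC peak lay within 1 kb of 5 of them, so strong 5mC without 5hmC inside was found both beside 5hmC peaks and far from them.

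The widest 5mC-only region ran on chromosome 8 from 142224944 to 142232201, over 7258 bp, with a -log10 p of 123 in high and 101 in normal glucose. Next came chromosome 18 from 77658741 to 77665979, with 7239 bp, and chromosome 19 from 1365500 to 1372005, with 6506 bp. Chromosome 9 from 139993303 to 139999454 and chromosome 8 from 10586516 to 10592512 followed. In the regions of chromosomes 18 and 9 the high-glucose list gave 2 peaks and the normal-glucose list 1. The nearest 5hmC peak of these 5 regions lay 378 to 3307 bp away. Regions this wide were rare, since 77 of the 1245 stable 5mC regions with a high-glucose peak above 3000 bp were 5mC-only.

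The summits of a 5mC-only region lay close together in the high- and normal-glucose lists. The rule does not use summits, but it joins overlapping 5mC rows. That limits how far apart the summits can lie and makes a shared span likely. The median distance between them was 49 bp (48 to 49), and 74.98% lay within 100 bp. In doubly marked regions the median was 49 bp (48 to 50) and 72.5% lay within 100 bp. The strongest peaks of the 2 lists shared a median of 77.5% of their joint span in 5mC-only regions and 78.7% in doubly marked ones. Across the 35914 5mC-only regions the -log10 p of the 2 lists correlated at a Spearman rho of 0.711, and across doubly marked regions, whose values spread wider, at 0.892. These are descriptions across regions of the same 2 libraries. Summit distance and shared span were thus close between both kinds of region. The rho of strengths was lower in 5mC-only regions, and the part of their narrower spread in this was not tested.

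5hmC was not far from most 5mC-only regions. The nearest 5hmC peak of either list lay at a median of 2423 bp (2376 to 2467), with the middle 50% between 911 and 6010 bp. It was within 1 kb for 27.0% (26.6 to 27.5), within 5 kb for 70.5% and within 10 kb for 86.1%. To the high-glucose list alone the median was 3569 bp, and to the longer normal-glucose list 2996 bp. Stronger 5mC-only regions lay somewhat closer to 5hmC. With the regions split into 5 groups by the smaller -log10 p, the median distance was 2657 bp in the weakest and 2064 bp in the strongest group. 5mC regions listed at 1 glucose level without 5hmC had medians of 2887 bp (high glucose only) and 2646 bp (normal glucose only).

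Beside the 5mC-only regions 5hmC cover reached a steady level within a few kb. At 500 bp from the edge, 4.23% of flanks lay inside a high-glucose and 5.06% inside a normal-glucose 5hmC peak. At 3000 bp it was 7.05% and 8.29%, and at 100000 bp still 6.94% and 8.09%. Over the whole span of the lists 5hmC peaks covered 3.90% in high and 4.23% in normal glucose, less than in these flanks. That span includes stretches without any listed peak, while the flanks all lie near listed peaks, so it is not a matched background. Doubly marked regions lay in richer surroundings than 5mC-only ones. Their flanks at 3000 bp were inside a 5hmC peak at 16.1% in high and 20.1% in normal glucose. The low values at 500 bp and nearer to a 5mC-only region follow from the rule, since a 5hmC peak there would often overlap it.

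**Figure D3:**
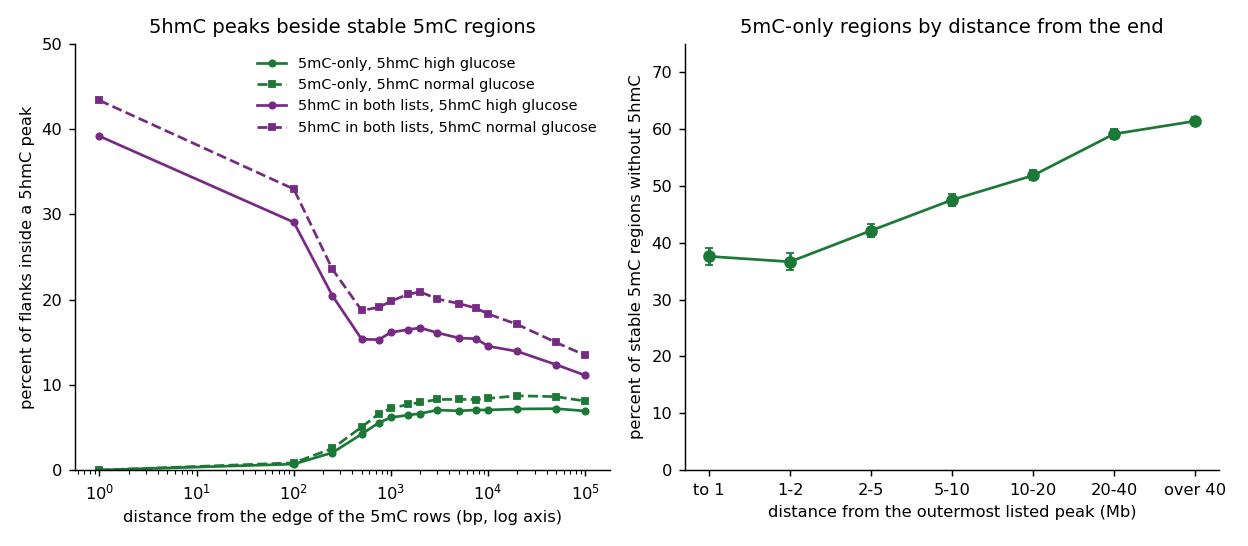
Left, percent of flanks (both sides) that lie inside a 5hmC peak against the distance from the edge of the 5mC rows in bp (log axis), for 5mC-only and doubly marked regions in each 5hmC list. Right, percent of stable 5mC regions that are 5mC-only, with Wilson 95% intervals, by distance in Mb from the outermost listed peak; it is 37.6% within 1 Mb and 61.4% beyond 40 Mb.

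The 5mC-only regions were spread unevenly along chromosomes, and position is not part of the rule. Within 5 Mb of the outermost listed peak of a chromosome, 39.7% of stable 5mC regions were 5mC-only (38.9 to 40.4). Farther in, 56.2% were (55.8 to 56.6). The share was lower in the end zone on 23 of 23 chromosomes. The difference of -16.5 percentage points became -9.19 with all 4 lists cut at a -log10 p of 10, -9.04 with only the 5hmC lists cut there, and -9.77 with 5hmC counted from 50% cover of the region. In the full lists the difference was widest on chromosome 8, at 37.0% in the end zone and 63.3% farther in, and narrowest on chromosome 18, at 59.1% and 64.8%. More of the end zone lay where 5hmC peaks were dense. With the stable 5mC regions split into 5 groups by the number of 5hmC peaks in their window, 6719 of the 16184 end-zone regions and 6968 of the 52488 farther in were in the densest group. Among the windows with the most 5hmC peaks the shares were 30.1% in the end zone and 32.5% farther in. Among those with the fewest they were 59.0% and 76.4%. The groups between had 55.1% and 61.7%, 46.9% and 53.0%, and 39.3% and 43.2%, so the end zone was lower in all 5 groups. The rule itself uses 5hmC peaks, and the part of their density in the difference was not tested. 5mC-only regions of the end zone were themselves wider and stronger than those farther in. Their median high-glucose width was 586.5 bp against 485 bp, and their median high-glucose -log10 p was 13.1 against 11.5.

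Where stable 5mC was sparse, most of it was free of 5hmC. In windows of 1 Mb with up to 5 stable 5mC regions, 79.4% of them were 5mC-only (77.5 to 81.1), against 31.1% (29.9 to 32.4) in windows with more than 160. Dense windows still held the most regions by number. The windows with most 5mC-only regions were chromosome 17 from 73000001 to 74000000, with 86 of 163 stable 5mC regions, and chromosome 16 from 4000001, with 80 of 186. Chromosome 2 from 236000001 (75 of 127), chromosome 10 from 1 (74 of 132) and chromosome 18 from 77000001 (74 of 145) followed. The median over the 2669 windows with any stable 5mC was 9 5mC-only regions.

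Among the 1022 windows with at least 20 stable 5mC regions the median share was 53.1%. It was highest on chromosome 2 from 204000001 to 205000000, where 21 of 22 regions were 5mC-only (78.2 to 99.2%), and the window before it, from 203000001, held 24 of 26. Chromosome 12 from 10000001 held 20 of 21 and chromosome 13 from 41000001 held 23 of 25. Chromosome 6 from 27000001 to 28000000, in a part of the short arm known for histone genes, held 42 of 45 (82.1 to 97.7%). 5hmC peaks were few in these 5 windows, 22 to 49 in the high-glucose and 28 to 55 in the normal-glucose list, against medians of 102.5 and 118 over the 1022 windows. The lowest shares were in the first window of chromosome 1, with 5 of 37, and on chromosome 17 from 81000001, with 6 of 31. Chromosome 4 from 7000001 (20 of 102) and chromosome 19 from 50000001 (30 of 143) and 3000001 (31 of 146) came next. The window of chromosome 1 held few 5hmC peaks, 62 high-glucose and 59 normal-glucose ones. That of chromosome 17 held 47 high-glucose and 57 normal-glucose 5hmC peaks. Listed peaks of chromosome 17 span 81.2 Mb, so this last window was only partly filled. Its counts therefore cannot be set against those of full windows. The windows of chromosomes 4 and 19 held 225 to 248 high-glucose and 239 to 295 normal-glucose 5hmC peaks.

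Chromosome 6 had the highest share of 5mC-only regions, 65.1% of 2739 (63.3 to 66.9), followed by chromosome 3 with 64.7% and chromosome 18 with 62.9%. The lowest shares were on chromosome 19, which is known for its gene density, with 33.9% of 4679 (32.6 to 35.3), on chromosome 16 with 42.2% and on chromosome 20 with 43.6%. The intervals of chromosomes 6, 3 and 18 overlap each other, while chromosome 19 lay apart from all others. Across the 23 chromosomes the share ran against the density of 5hmC peaks per Mb, with a Spearman rho of -0.84 for the high-glucose and -0.85 for the normal-glucose list. Chromosomes share their libraries, and the rule itself uses 5hmC peaks, so this is a description. The expected number of fragments at the 5mC summits, which follows the local background, moved with the share as well (rho -0.586). Its median was 0.737 on chromosome 6 and 1.24 on chromosome 20. At summits with the lowest expected number, 70.5% of 1910 regions on chromosome 6, 75.8% of only 128 on chromosome 20 and 48.6% of 1029 on chromosome 19 were 5mC-only. Its part in the order was not tested.

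**Figure D4:**
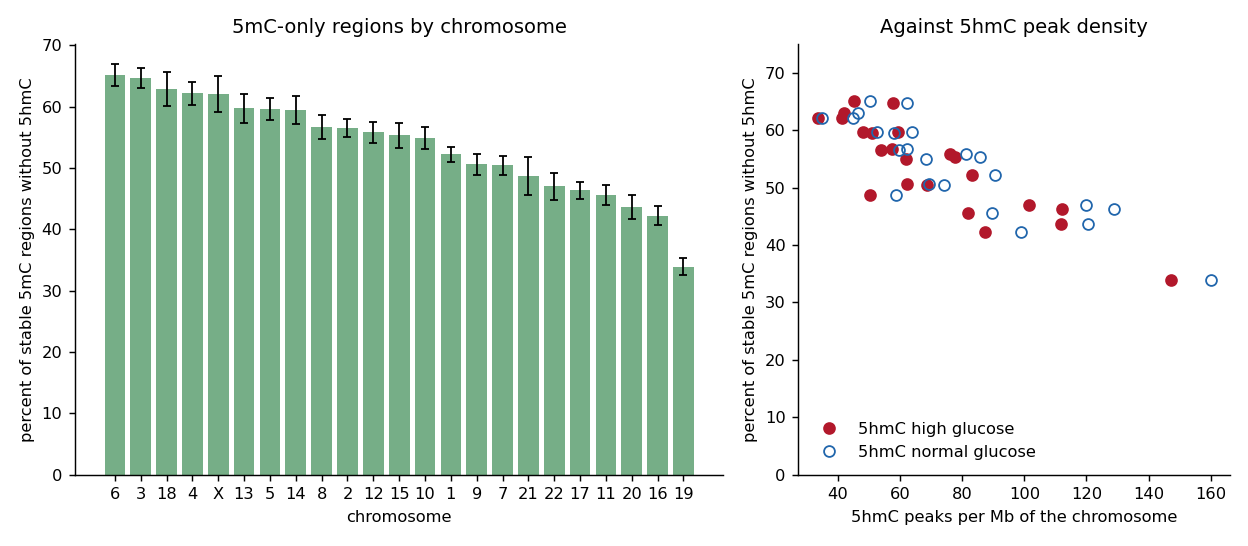
Left, percent of stable 5mC regions that are 5mC-only on each chromosome, bars from 0 with Wilson 95% intervals, between 65.1% on chromosome 6 and 33.9% on chromosome 19. Right, the same percent against the number of 5hmC peaks per Mb, 1 point per chromosome and list; chromosomes with more 5hmC peaks have lower shares.

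Peaks themselves differed little between chromosomes. The median -log10 p of 5mC-only regions lay between 10.6 on chromosomes 6, 22 and X and 13.1 on chromosome 21 in the high-glucose list, and between 9.74 on chromosomes 22 and X and 11.5 on chromosome 21 in the normal-glucose list. The median distance to 5hmC varied more, from 1309 bp on chromosome 19 to 4103 bp on the X chromosome.

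The state of a stable 5mC region went with that of its neighbour. When the previous stable 5mC region was 5mC-only, 62.1% were 5mC-only (61.6 to 62.6), against 41.5% (41.0 to 42.0) when it carried 5hmC. For neighbours within 1 kb the shares were 48.1% and 27.1%, and for neighbours more than 100 kb apart 76.2% and 68.4%. Among all union regions, of which 11.3% were 5mC-only, 24586 5mC-only regions, 68.5%, stood alone between union regions of other kinds. The other 11328 formed 4968 runs of at least 2 with no other listed region between them. Regions in runs were about as strong as single ones, with a median high-glucose -log10 p of 11.8 for both. They lay farther from 5hmC, at a median of 3775 bp against 1900 bp. That distance is tied to the definition of a run, which allows no 5hmC peak between its regions.

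The longest run held 8 5mC-only regions on chromosome 5 from 178194000 to 178209186, which covered 48.1% of its 15187 bp. Their -log10 p was 4.91 to 24.1 in the high-glucose and 3.19 to 54.6 in the normal-glucose list. Runs of 7 lay on chromosome 3 from 57857728 to 57923540 and on chromosome 6 from 157275941 to 157323172. In these 2 the peaks were small and far apart, covering 4.91% and 9.91% of the run. Another run of 7 lay on chromosome 13 from 28526890 to 28554891, with a high-glucose -log10 p between 10.6 and 90.2 and a normal-glucose one between 7.70 and 78.2.

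The run of 7 on chromosome 5 from 140180774 to 140223407 lies in the stretch known for the clustered protocadherin genes, which encode cell adhesion proteins of neurons. Its peaks were strong, with a high-glucose -log10 p between 8.17 and 161 and a normal-glucose one between 8.47 and 149. The remaining run of 7, on chromosome 5 from 140794058 to 140821918 in the same gene stretch, was named after its values were seen. It covered 41.3% of 27861 bp, reached a -log10 p of 326 in high and 230 in normal glucose, and holds the region ranked 5 by strength. The union regions just before these 2 runs, 3633 and 335 bp away, held 5mC in both lists with 5hmC in normal glucose only.

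**Figure D5:**
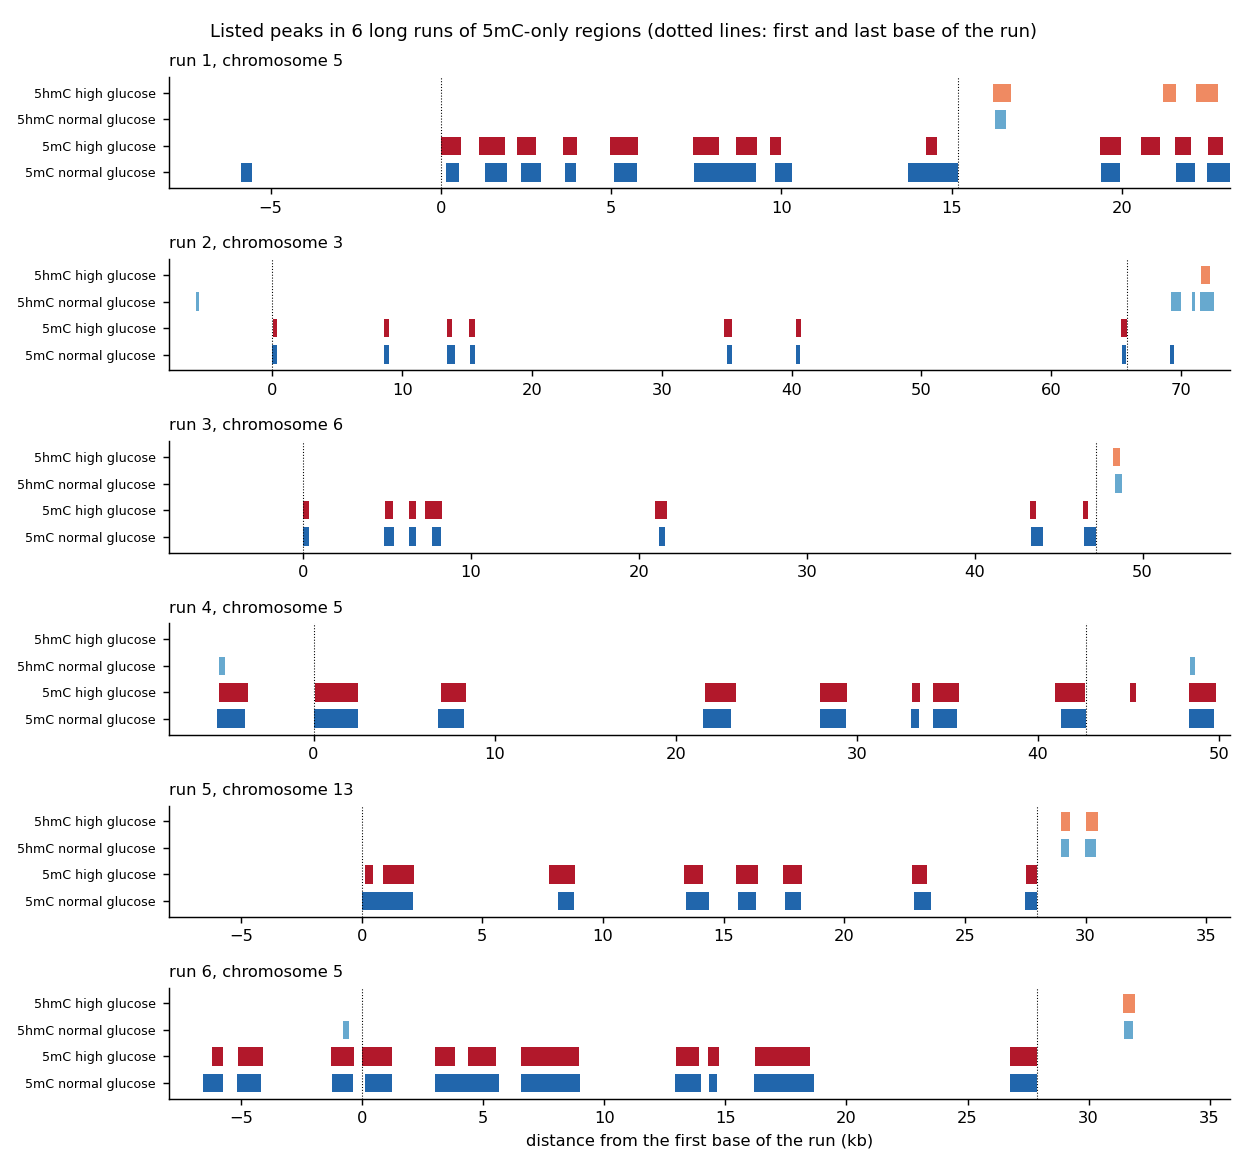
Listed peaks of the 4 lists in 6 long runs of 5mC-only regions, against distance in kb from the first base of each run; dotted lines mark the run's ends. Within the dotted lines no 5hmC peak is listed, and every 5mC-only region holds 5mC peaks of high glucose and of normal glucose.

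The 5mC-only regions farthest from any 5hmC peak were 591 to 1007 bp wide. The first, on chromosome 22 from 16097282 to 16098288, was 785503 bp from the nearest 5hmC peak, with a -log10 p of 7.04 in high and 7.70 in normal glucose. The second, on chromosome 9 from 44070453 to 44071050, had a -log10 p of 10.6 in high and 12.8 in normal glucose over expected numbers of 8.40 and 7.33 fragments, where the medians of these lists were 0.905 and 0.732. The third, on chromosome 12 from 37960061 to 37960698, had a -log10 p of 24.3 in high and 15.5 in normal glucose. Ranks 4 and 5 lay close together on chromosome 5, from 70305826 to 70306416 and from 70309208 to 70310195. Rank 4 had a -log10 p of 51.8 in high and 22.9 in normal glucose, and rank 5 had 7.04 in high and 4.35 in normal glucose. In all, 279 5mC-only regions had no 5hmC peak within 50 kb, and their median -log10 p was 9.35 in high and 8.91 in normal glucose. Where reads could be placed was not examined, so these distances do not show that 5hmC was absent in between. Within 1 Mb of the longest stretch of a chromosome without any listed peak, 63.6% of 450 stable 5mC regions were 5mC-only. Beyond 10 Mb from it 52.0% were.

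Few regions lay within 50 bp of the border of the rule. The 3 named 5mC-only regions just inside it directly adjoined a 5hmC peak on chromosome 1 (168121771 to 168122180), chromosome 3 (195480977 to 195481334) and chromosome 4 (44665985 to 44666529), with no base between. The 3 named stable 5mC regions just outside it shared 1 bp with 5hmC on chromosome 1 (110179253 to 110181313 and 230462539 to 230463721) and chromosome 9 (100364472 to 100365834). A 5hmC peak lay within 50 bp of 471 5mC-only regions, 1.31%, and 350 of the 32758 regions outside the rule shared under 50 bp with 5hmC, 1.07%. Within 500 bp a 5hmC peak lay near 5085 5mC-only regions, 14.2%, so the border is less sharp at wider margins.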

How the data were processed

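The submitters' processing notes name hg19 as the build and list bedtools 2.17.0, SAMtools 0.1.18, Bowtie 1.0.0 and CASAVA 1.8.2, without roles. The peak caller and its control were not given in the sources used here. Per immunoprecipitated library, the authors deposited 1 narrow peak list, with a display score (not used), a fold enrichment (a ratio), a summit and, on the -log10 scale, a p-value and a q-value per peak. For 5hmC the highest deposited q-value was 0.0498 in high and 0.0496 in normal glucose, and for 5mC 0.0496 and 0.0488. Peaks of chromosome Y and of mitochondrial DNA were not counted, 80 and 82 for 5hmC and 14 and 15 for 5mC. No file of the 2 inputs was used. Groups come from the sample labels; peak names inside the lists use other words for the glucose levels and were not used.

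Regions were merged and counted with Python 3.11.15, NumPy 2.4.6, pandas 2.3.3 and SciPy 1.17.1, and drawn with Matplotlib 3.10.9. Where a list gave several peaks in a region, the strongest stood for it. Fragments t and expected number L were read from fold = (t + 1)/(L + 1) and the Poisson p-value of more than t. A whole t was found for each of the 191314 high- and 209999 normal-glucose 5hmC rows and the 100220 and 91870 5mC rows, to within 1% of the step in -log10 p between whole numbers. This form of the p-value was inferred from the values. Distances count from the outermost listed peak, since chromosome lengths of hg19 were not used. Merging, distances and fragment numbers were tested on simulated data.

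The regions, groups and alternatives were chosen with earlier results of these data known. Named were the 10 strongest regions by the smaller -log10 p, the 5 widest, the 5 farthest from 5hmC, the 5 longest runs, the windows and chromosomes with most regions or extreme shares, and the 3 on each side of the border. CpG content, gene overlap and sequences, planned for a genome of hg19, were not analysed here. Alternatives cut the lists at stricter p- or q-values, changed merging, the overlap that counts as 5hmC and the end zone, or left out the X chromosome.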

Additional observations from a re-analysis of the deposited data

How the results depend on the processing

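No paired analysis was possible because each group has 1 library, and for the same reason no library could be left out. When the 4 lists were cut at a -log10 p of 3, with autosomes only and with a 2 Mb end zone, no share, difference or summit distance moved beyond its interval. The 35914 regions, the 52.3% share, the differences from doubly marked regions (-290 bp in width and -8.67 in -log10 p, high-glucose list), the end zone difference (-16.5 percentage points) and the summit distance (49 bp) are compared in that order below. No difference changed sign. A -log10 q of at least 2 gave a share of 53.1%. A cut of every list at a -log10 p of 10 gave 65.6%, -340 bp, -11.9, -9.19 points and 39 bp; with only 5mC cut there, 15752 regions, 42.2%, -392 bp, -12.2, -15.2 points and 37 bp. With only 5hmC cut there, chosen after the data were seen, the share was 73.0%, with -9.46 and -9.04 points. Merging within 500 bp gave 46.6%, -249 bp, -7.82 and -15.5 points. Counting 5hmC from 50% cover gave 67.04%, -105 bp, -4.95, -9.77 points and 50 bp, and counting it within 1 kb gave 37.4%, -230 bp, -6.30 and -17.5 points. Counting it only over a 5mC summit (also chosen then) gave 60.5%, -215 bp, -7.37 and -13.8 points. Merging the 5mC rows alone (also chosen then) kept all 35914 regions and gave 51.2%, -305 bp and -17.5 points. A 10 Mb end zone gave -15.5 points. The share thus ran from 37.4% to 73.0% with what counts as 5hmC and how strong peaks must be. The number of regions, which has no interval, ran from 15752 with only 5mC cut at 10 to 50282 with only 5hmC cut there. It was 26214 with 5hmC counted within 1 kb, 29581 with merging within 500 bp, 42484 with 5hmC over a summit and 47046 from 50% cover. Of the 24533 regions left with all lists at 10, 15585 were 5mC-only regions of the full lists with the same ends. CpG content and gene overlap were not run. The lists limit 5hmC to summits of at least 9 fragments in high and 8 in normal glucose.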
